A study of Arabidopsis thaliana with 9 samples.

Results

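The Arabidopsis thaliana genes AT3G22240, AT1G65500, AT1G76960, AT3G18250 and AT1G19960 were followed in whole seedlings of a wild type and of a pair of ascorbate-deficient mutants. They were grouped as genes of small proteins that are higher in both mutants, but 1 of the 3 wild-type arrays had signals as high as the mutants. They were chosen by their deposited signals, which varied widely between arrays, so their differences from the wild type are given as a description and without a test. Each of the 5 has 1 probe set that names only this gene, and all 5 were among the 14603 of 22810 probe sets bright enough to be tested. A single probe set per gene means that no second measurement of the same transcript was used. Protein sequences were not used here, so the length of the encoded proteins was not checked.

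Col-0 is the wild-type accession. vtc1-1 and vtc2-1 are mutants in the synthesis of ascorbate (vitamin C), affected in GDP-mannose pyrophosphorylase and GDP-L-galactose phosphorylase. Neither enzyme's gene was paired with a probe set by the annotation used, so the mutated genes were not checked. The labels place vtc2-1 in the Col-0 background as a line from chemical mutagenesis (EMS), and give a stock code but no background for vtc1-1. Each mutant is therefore known from a single allele here. All seedlings had grown for 14 days on nutrient agar to stage 1.04, and whole plants were harvested without further treatment in any group. Each genotype had 3 samples, and each was hybridised to 1 Affymetrix ATH1 array that reports 1 signal intensity per probe set. Nothing in the labels says that the replicates came from separate sowings. The p-values therefore reflect the spread among these samples, which may be technical, and the number of arrays limits every value. In whole seedlings, more cells with a transcript and more transcript per cell cannot be told apart.

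As background, plants answer infection with a local response and with systemic acquired resistance, both of which depend largely on the hormone salicylic acid. Many short secreted or membrane-bound proteins are among the transcripts that accumulate in these responses, and the function of most is unknown. Mutants low in ascorbate are known for raised salicylic acid and pathogenesis-related transcripts in leaves. AT3G22240 belongs to the cysteine-rich transmembrane (CYSTM) family and lies in a tandem row with PCC1, a transcript under the control of pathogens and the circadian clock. No role is given here for the other genes.

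Col-0 replicate 3 stood apart from the other wild-type arrays, which bears on every value below. Its score on the first principal component of the tested probe sets (27.1% of variance) was 37.3, against -41.2 and -34.6 for Col-0 replicates 1 and 2 and -9.23 to 24.9 for the 6 mutant arrays. Col-0 replicate 3 also had the lowest 25S rRNA control signal of the 9 arrays, 821 against 1990 to 7015 in the others, and the lowest mean signal of the spiked BioB control, 77.1 against 95.4 to 178. Its array median of 43.9 lay inside the range of 43.0 to 45.2 over all arrays. The part of these values in the results was not tested. Rubisco activase (RCA), a leaf marker, and PYK10, a root marker, had signals of 5751 to 8376 and 1726 to 4406, so both organs were represented in every sample. Their levels were not even. RCA was lowest in Col-0 replicate 3, at 5751 against 8376 and 8084 in Col-0 replicates 1 and 2. PYK10 was 2086 in vtc2-1 replicate 3 against 4238 and 4406 in vtc2-1 replicates 1 and 2. RCA in vtc2-1 replicate 3 and PYK10 in Col-0 replicate 3 were at 7139 and 3001. Whether organ content differed between arrays was not tested.

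AT3G22240 was measured far above background on every array. Its signals were 314, 214 and 2927 in Col-0 replicates 1, 2 and 3. They were 1911, 3241 and 2769 in vtc1-1 and 533, 1654 and 4715 in vtc2-1, in the same order. Col-0 replicate 3 lay among the vtc1-1 arrays and above 2 of the 3 vtc2-1 arrays, so that each mutant overlapped the wild type. The lowest and highest arrays, Col-0 replicate 2 and vtc2-1 replicate 3, differed 22.0-fold.

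AT1G65500 showed the same low wild-type arrays. Its signals were 9.55, 29.9 and 243 in Col-0, 203, 227 and 281 in vtc1-1, and 63.6, 49.4 and 347 in vtc2-1. The first of these lies just above the 20th percentile of its array, 9.48, which served as the floor below which signals were not told apart. The vtc1-1 arrays stayed close to each other, whereas in vtc2-1 replicate 3 lay far above both others.

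AT1G76960 was below the floor in Col-0 replicates 1 and 2, at 4.14 and 5.48, and reached 172 in Col-0 replicate 3. In vtc1-1 its signals were 81.8, 92.5 and 148, and in vtc2-1 they were 41.9, 84.1 and 363. Col-0 replicate 3 was higher than every vtc1-1 array. Against the floor, Col-0 replicate 3 stood at least 19.1-fold above the other wild-type arrays.

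AT3G18250 gave the widest span of the 5 genes. It was below the floor in Col-0 replicates 1 and 2, at 1.94 and 3.82, while Col-0 replicate 3 had the highest signal of all 9 arrays, 419. The vtc1-1 signals were 80.9, 90.4 and 91.3, and the vtc2-1 signals were 35.7, 54.5 and 247. Col-0 replicate 3 therefore exceeded the other wild-type arrays at least 46.6-fold and lay above every mutant array.

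AT1G19960 was likewise below the floor in Col-0 replicates 1 and 2, at 2.17 and 1.49, and stood at 135 in Col-0 replicate 3. It reached 136, 193 and 131 in vtc1-1 and 24.8, 75.9 and 260 in vtc2-1. Col-0 replicate 3 fell inside the vtc1-1 range, and vtc2-1 replicate 1 was below its array's 40th percentile of 29.4. Col-0 replicate 3 stood at least 15.1-fold above the other wild-type arrays.

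**Figure D1:**
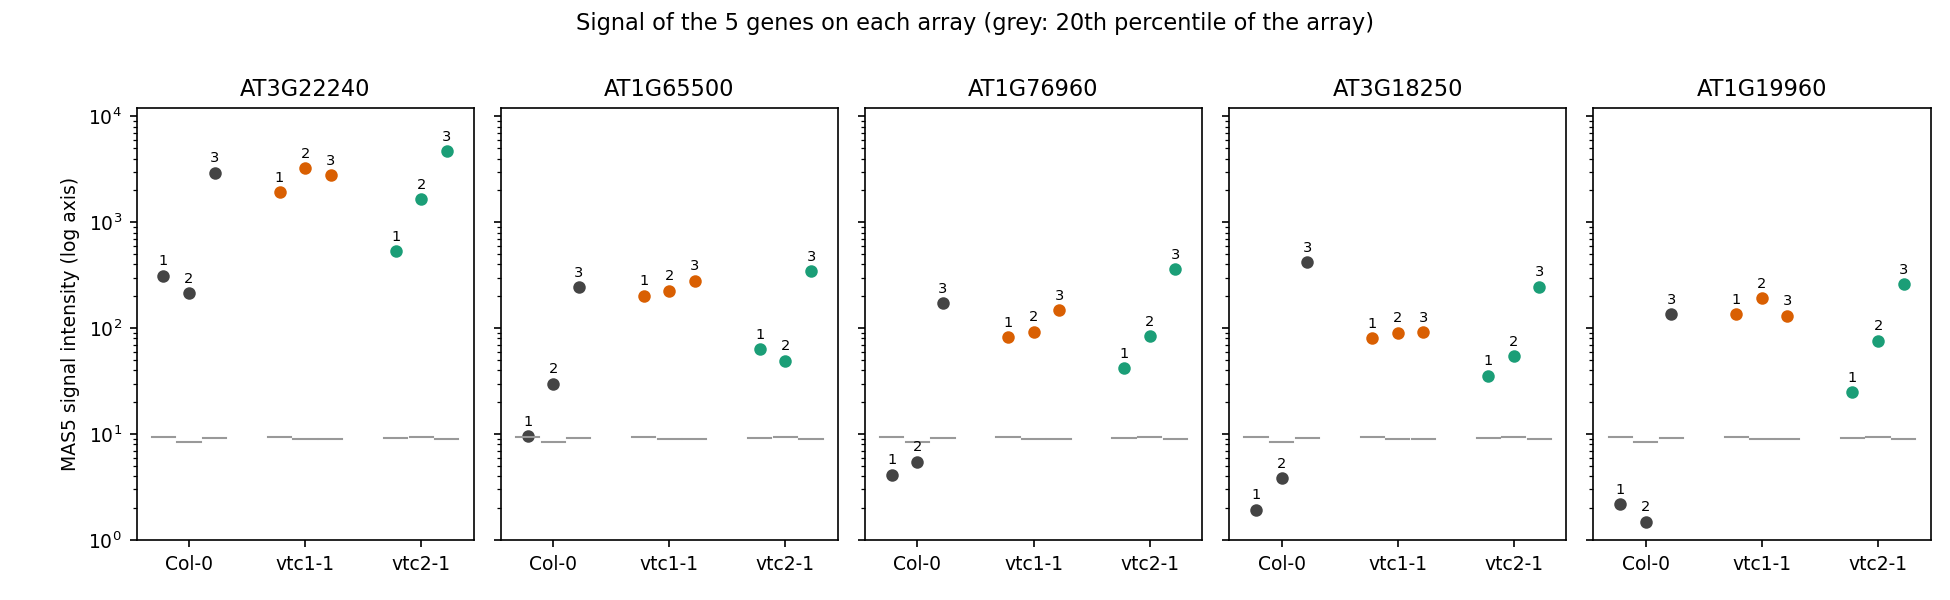
Signal intensity (log axis) of each gene on each of the 9 arrays, by genotype. Numbers beside the points are replicate numbers and grey bars mark the 20th percentile of each array. In every gene Col-0 replicates 1 and 2 are lowest and Col-0 replicate 3 lies with or above mutant arrays.

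The 5 genes had much of the order of the arrays in common, though not all of it. All 6 mutant arrays exceeded Col-0 replicates 1 and 2 in 5 of the 5 genes, a position found at 8.64% of the tested probe sets. Among the mutant arrays vtc2-1 replicate 3 was the highest in each gene, and in 4 genes it was the highest of all 9 arrays, AT3G18250 being the exception. The lowest mutant array was vtc2-1 replicate 1 in 4 genes and vtc2-1 replicate 2 in AT1G65500. These positions are among the values that the choice of the genes used, and nothing is read from their counts.

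The spread inside a genotype differed between genotypes. In vtc1-1 the highest and lowest arrays differed by 1.13-fold for AT3G18250, 1.38-fold for AT1G65500, 1.48-fold for AT1G19960, 1.70-fold for AT3G22240 and 1.80-fold for AT1G76960. The same quotient in vtc2-1 was 6.93-fold for AT3G18250, 7.02-fold for AT1G65500, 8.65-fold for AT1G76960, 8.85-fold for AT3G22240 and 10.5-fold for AT1G19960. In Col-0, with signals raised to the floor, it ran from 13.7-fold for AT3G22240 to 49.3-fold for AT3G18250. For Col-0 the median log2 range of the 5 genes was 4.34, against 0.55 over all tested probe sets. For vtc1-1 these medians were 0.56 and 0.43, and for vtc2-1 they were 3.11 and 0.45. Within vtc1-1 the range was wider than that of 12.3% of the tested probe sets for AT3G18250, 54.5% for AT1G65500, 64.8% for AT1G19960, 80.0% for AT3G22240 and 84.3% for AT1G76960. Within Col-0 and vtc2-1 each of the 5 ranges was wider than that of more than 99% of them (99.6 to 99.98% in Col-0 and 99.7 to 99.9% in vtc2-1). The genes were chosen for wide variation between arrays, so these positions are a description and nothing is read from them.

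Replicate 3 was the highest array of Col-0 and of vtc2-1 in every one of the 5 genes. Col-0 replicate 3 exceeded the mean log2 signal of Col-0 replicates 1 and 2 by 3.50 for AT3G22240, 3.85 for AT1G65500, 4.26 for AT1G76960, 5.54 for AT3G18250 and 3.92 for AT1G19960. Because Col-0 replicates 1 and 2 were below the floor for the last 3 genes, their values and the median of the 5, 3.92, are lower bounds. The median over all tested probe sets was -0.06, and with no floor that of the 5 was 5.17. All 5 were more than 4-fold higher, as were 1.6% of the tested probe sets. In vtc2-1, replicate 3 exceeded replicates 1 and 2 by 2.33 for AT3G22240, 2.63 for AT1G65500, 2.61 for AT1G76960, 2.49 for AT3G18250 and 2.58 for AT1G19960, with a median of 2.58 against -0.01 over all tested probe sets. All 5 were more than 2-fold higher, as were 2.74% of the tested probe sets. One array stands on its own in each of these differences, so they have no replicate check. They are also among the values by which the genes were chosen, and nothing is read from their counts.

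**Figure D2:**
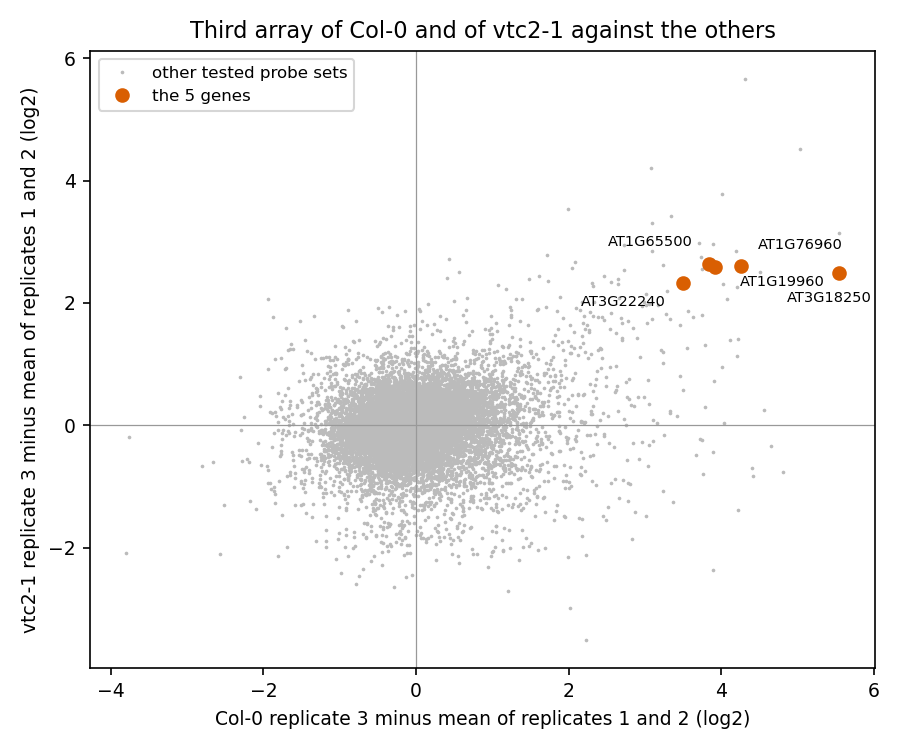
For each tested probe set, the log2 signal of replicate 3 minus the mean of replicates 1 and 2, in Col-0 (horizontal) and vtc2-1 (vertical). The 5 genes (orange) lie at 3.50 to 5.54 on the horizontal and 2.33 to 2.63 on the vertical axis, and most other probe sets (grey) lie near 0.

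With all 9 arrays each gene had a higher mean of floored log2 signals in both mutants than in Col-0, with large errors. On the linear scale the direction turned for AT3G18250, whose Col-0 mean of 141 ± 240 (SD, n = 3) was above the vtc1-1 mean of 87.5 ± 5.78 and the vtc2-1 mean of 113 ± 117. For AT1G76960, AT3G18250 and AT1G19960 the size of the log2 difference also depends on the floor, below which 2 of the 3 Col-0 arrays lay. The difference of log2 signals between vtc1-1 and Col-0, with signals floored at the 20th percentile, was 2.15 ± 0.85 for AT3G22240, 2.51 ± 0.92 for AT1G65500 and 2.11 ± 0.97 for AT1G76960 (SE of the limma coefficient, 3 arrays per group). It was 1.44 ± 1.15 for AT3G18250 and 2.77 ± 0.93 for AT1G19960. The median of the 5 was 2.15, and that of all tested probe sets was 0.01. At least 4-fold higher were 4 of the 5, as were 0.0685% of the tested probe sets (10, these 4 among them), and AT3G18250 was 2.71-fold higher. The genes were grouped as higher in both mutants, so nothing is read from this count. With no floor all 5 were at least 4-fold higher, AT3G18250 being at 5.99-fold. With a floor at the 40th percentile AT3G22240 alone was, at 4.44-fold, and AT3G18250 was at 1.23-fold. In limma 0 of 14603 probe sets (0%) passed an adjusted p of 0.05 in this comparison, and 618 had an unadjusted p below 0.05. These counts are background for the whole table and no test of the 5 genes.

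Between vtc2-1 and Col-0 the differences were mostly smaller. They were 1.47 ± 0.85 for AT3G22240, 1.32 ± 0.92 for AT1G65500, 2.18 ± 0.97 for AT1G76960, 1.28 ± 1.15 for AT3G18250 and 1.83 ± 0.93 for AT1G19960. The median of the 5 was 1.47, and that of all tested probe sets was 0.01. One of the 5, AT1G76960, was at least 4-fold higher, as were 0.0342% of the tested probe sets, and nothing is read from this count either. With no floor it was at 6.90-fold, AT3G18250 at 5.37-fold and AT1G19960 at 10.4-fold, and with a floor at the 40th percentile AT1G76960 was at 2.06-fold. Over the whole table the comparison gave 1 call in limma (0.00685%), which was lower in vtc2-1. This count too is no test of the 5 genes. Both comparisons use the same 3 Col-0 arrays, so their likeness is no separate evidence.

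The size of both sets of differences turned on single arrays. With any 1 array left out the log2 differences from Col-0 stayed above 0. The lowest was 0.27 ± 0.83 for AT1G65500 in vtc2-1, without Col-0 replicate 1. Since the genes were grouped as higher in both mutants, this direction is no test. Without Col-0 replicate 3 the vtc1-1 difference was 3.32 ± 0.58 for AT3G22240, 3.80 ± 0.63 for AT1G65500, 3.53 ± 0.61 for AT1G76960, 3.28 ± 0.56 for AT3G18250 and 4.07 ± 0.63 for AT1G19960. Since the remaining wild-type arrays were below the floor for the last 3 genes, their values are lower bounds, of at least 11.6-fold, 9.74-fold and 16.8-fold. In vtc2-1 the corresponding differences were 2.63 ± 0.58 for AT3G22240, 2.61 ± 0.63 for AT1G65500 and at least 12.1-fold for AT1G76960, 8.73-fold for AT3G18250 and 8.79-fold for AT1G19960. Over the whole table, limma without that array called 0.301% of the tested probe sets higher in vtc1-1 and 0.678% higher in vtc2-1. Calls on the 5 genes are not given, since they were chosen from these contrasts.

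Leaving out vtc2-1 replicate 3 instead lowered the vtc2-1 difference from all 3 Col-0 arrays to 0.69 ± 0.85 for AT3G22240, 0.45 ± 0.91 for AT1G65500, 1.31 ± 0.98 for AT1G76960, 0.45 ± 1.22 for AT3G18250 and 0.97 ± 0.93 for AT1G19960. With replicate 3 of both Col-0 and vtc2-1 set aside, vtc2-1 replicates 1 and 2 still stood above Col-0 replicates 1 and 2. The factor was 3.62 for AT3G22240 and 3.32 for AT1G65500, and at least 6.62 for AT1G76960, 4.92 for AT3G18250 and 4.84 for AT1G19960.

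**Figure D3:**
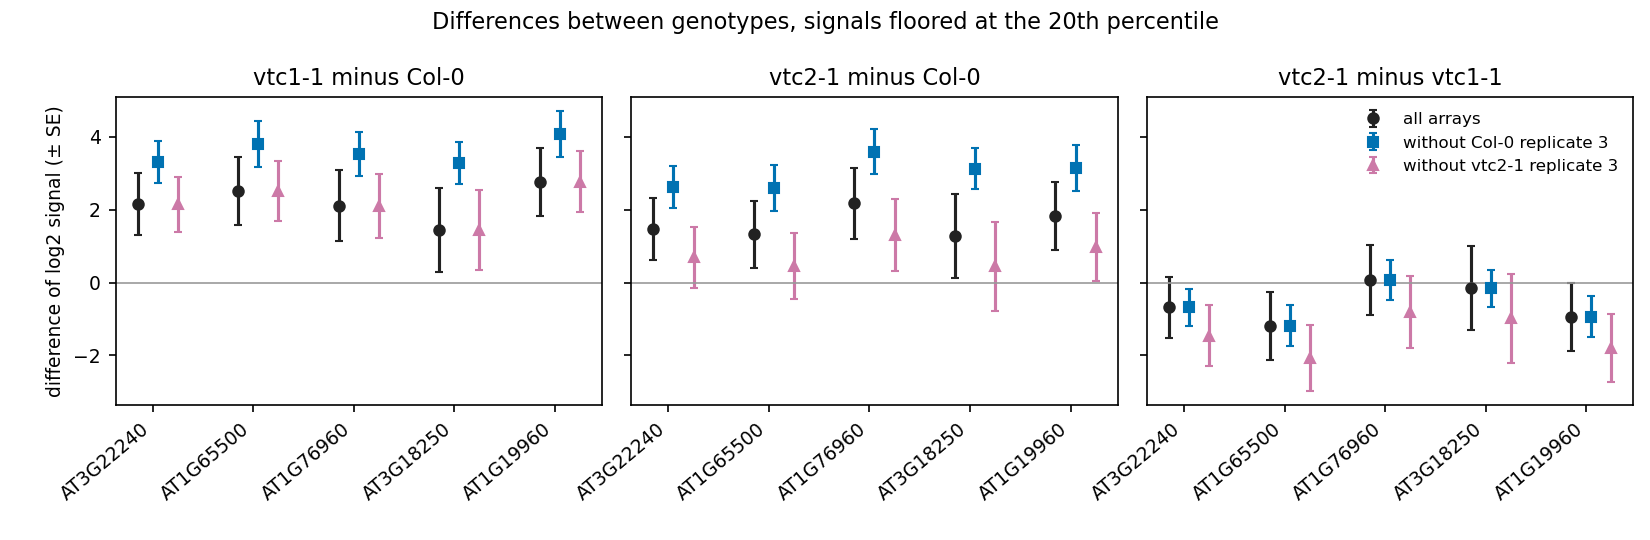
Difference of mean log2 signal (± SE of the limma coefficient) for each gene in the 3 comparisons, with all arrays (black), without Col-0 replicate 3 (blue) and without vtc2-1 replicate 3 (pink). Differences from Col-0 are larger without Col-0 replicate 3, with medians of 3.53 in vtc1-1 and 3.13 in vtc2-1 against 2.15 and 1.47 with all arrays.

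The mutants were also compared with each other. The genes were not grouped by this difference, but they were chosen for wide variation over the same arrays, the mutant arrays included. A choice for wide variation favours wide intervals, so a missing call says little here. Of the 5 genes 0 passed the test between vtc2-1 and vtc1-1 in limma, which called 1 of 14603 probe sets (0.00685%) here and gave 538 an unadjusted p below 0.05. The log2 difference was -0.68 for AT3G22240 (95% interval -2.51 to 1.15), -1.19 for AT1G65500 (-3.19 to 0.80) and 0.07 for AT1G76960 (-2.03 to 2.16). It was -0.16 for AT3G18250 (-2.64 to 2.32) and -0.94 for AT1G19960 (-2.95 to 1.08). The adjusted p of each in limma was 0.999. The intervals include differences of more than 4-fold in vtc1-1's favour, and for AT1G76960 and AT3G18250 also in vtc2-1's favour. The test therefore does not show that the mutants had the same level.

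In 4 of the 5 genes the mean log2 signal was ordered vtc1-1, vtc2-1 and Col-0 from high to low, and AT1G76960 stood at 6.70 ± 0.45 in vtc1-1 and 6.76 ± 1.59 in vtc2-1 (SD, n = 3). The mutants did not differ beyond the vtc2-1 spread, whose SD was 1.47 to 1.70 over the 5 genes. AT1G65500 alone was at least 2-fold lower in vtc2-1 than in vtc1-1, as were 0.589% of the tested probe sets. Setting Col-0 replicate 3 directly beside the vtc1-1 mean, its log2 signal differed by 0.18 for AT3G22240, 0.05 for AT1G65500 and -0.16 for AT1G19960. For AT1G76960 and AT3G18250 it was higher by 0.73 and 2.26, and in these 2 genes it lay above all 3 vtc1-1 arrays, as at 22.7% of the tested probe sets.

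The 5 genes ran together over the arrays, as a description of genes picked for that. Over the 10 pairs Pearson's r of the log2 signals was 0.884 to 0.991 (n = 9 arrays) and Spearman's rho 0.817 to 0.967. The closest pair was AT3G22240 and AT1G19960 and the least close AT1G65500 and AT3G18250. Without the 2 arrays farthest from the rest, Col-0 replicates 1 and 2, r was 0.692 to 0.977 and rho 0.607 to 0.929 (n = 7). With each array taken relative to its genotype's mean r was 0.842 to 0.990. All these correlations share the high replicate 3 arrays of Col-0 and vtc2-1, and no p is given. Inside vtc1-1, where the spread was small, the genes had no common order. There AT1G65500, AT1G76960 and AT3G18250 were highest in replicate 3, and AT3G22240 and AT1G19960 in replicate 2.

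Other genes followed the same arrays. The tested probe sets, with the 5 genes themselves counted among them, were set against the mean standardised profile of the 5. Of these, 180 (1.23%) had an r of at least 0.9 and 61 had an r of -0.9 or less, against a median of -0.06 over all. Among 7892 candidate probe sets that name 1 gene, the closest was AT4G12490 (r = 0.986), a lipid-transfer-type gene clustered with the systemic resistance gene AZI1. It was followed by AT2G41090, a calmodulin-like protein (0.981), AT2G03510, a band-7 membrane protein (0.966), AT3G28480, an oxoglutarate-dependent oxygenase (0.963), and AT5G02450, a ribosomal protein (0.961). Next came AT1G35710, a leucine-rich repeat receptor kinase (0.960), AT4G34290, a SWIB-domain protein (0.960), AT5G17760, an AAA-type ATPase (0.958), AT5G46230 (0.956) and AT5G03350, a legume-lectin-type protein (0.952).

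Spearman's rho of these 10 genes with the mean profile was 0.833 to 0.983 (n = 9 arrays), and the size of their differences varied. AT4G12490 had signals of 62.7, 68.5 and 1495 in Col-0, 874, 1160 and 910 in vtc1-1, and 272, 280 and 1573 in vtc2-1. Its Col-0 replicate 3 lay 4.51 above the other wild-type arrays on the log2 scale, inside the span of the 5 genes. AT5G03350 had signals of 124, 92.2 and 709 in Col-0, 785, 709 and 728 in vtc1-1, and 139, 575 and 1642 in vtc2-1, again lowest in Col-0 replicates 1 and 2 and highest in vtc2-1 replicate 3. AT5G02450 varied within a narrow span and was highest in Col-0 replicate 3, 0.41 above the other wild-type arrays on the log2 scale, and AT3G28480 and AT2G03510 had values of 0.61 and 0.74. AT1G35710 and AT5G46230 had values of 3.33 and 3.21, the latter a lower bound against wild-type signals below the floor. Without Col-0 replicates 1 and 2 the 10 correlations were 0.847 to 0.945 (n = 7 arrays).

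**Figure D4:**
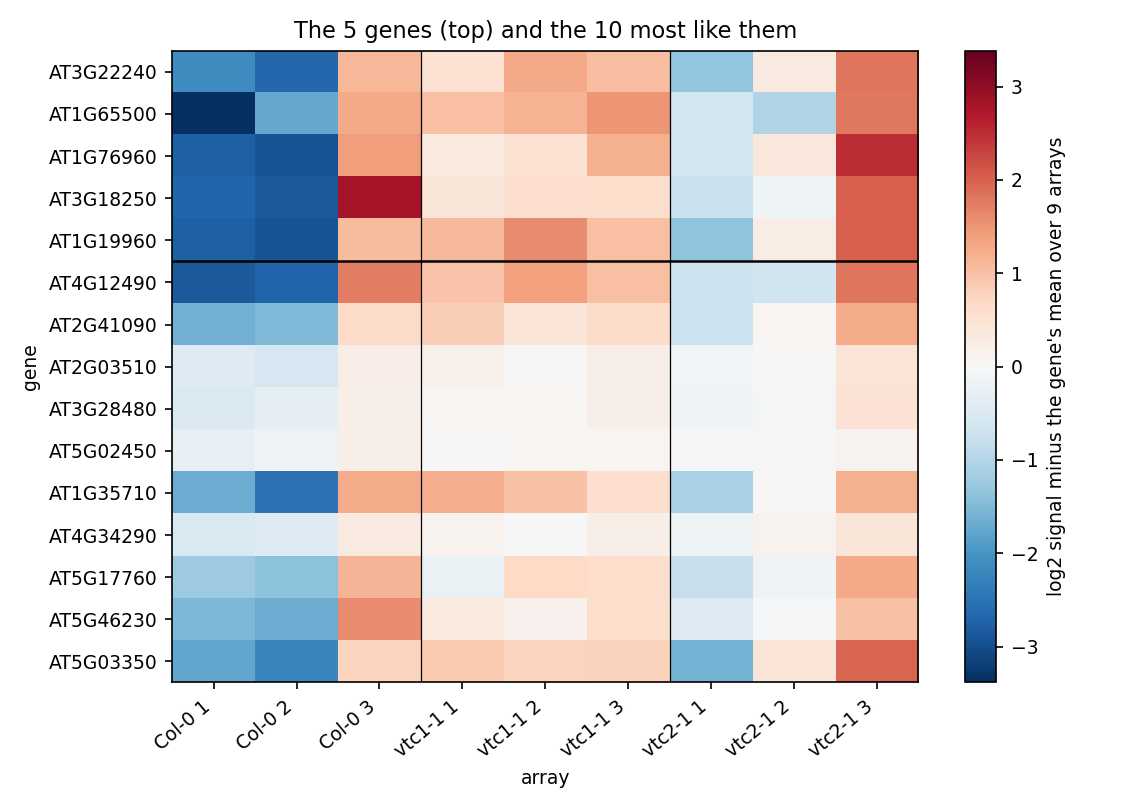
Log2 signal of each gene on each array, floored at the 20th percentile and relative to the gene's mean over the 9 arrays, for the 5 genes (above the line) and the 10 probe sets most correlated with them. Blue columns at Col-0 1 and 2 and red columns at Col-0 3 and vtc2-1 3 recur in all rows, with paler colours for AT2G03510, AT3G28480, AT5G02450 and AT4G34290.

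Each gene also had its own nearest profiles. AT3G22240 was closest to AT5G03350 (r = 0.977, n = 9 arrays), AT3G49320 (0.976) and AT2G25510 (0.974). AT1G65500 was closest to AT5G52810, which is SARD4 of the pipecolic acid pathway of systemic resistance (0.970), AT4G12490 (0.965) and Hsp70-2, a chaperone (0.963). AT1G76960 was closest to AT2G03510 (0.983), AT4G34290 (0.979) and AT5G19250 (0.976). AT3G18250 was closest to AT5G46230 (0.992), AT5G20950, a glycosyl hydrolase (0.986), and AT1G51850, a leucine-rich repeat kinase (0.973). AT1G19960 was closest to AT2G41090 (0.982), AT1G35710 (0.975) and AT5G03350 (0.974). In AT5G52810 the signals were 18.5, 34.7 and 62.6 in Col-0, 84.6, 82.5 and 82.3 in vtc1-1, and 47.5, 48.2 and 111 in vtc2-1, so Col-0 replicate 3 lay below all vtc1-1 arrays there.

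The tested genes next to the 5 on their chromosomes did not show their span, and AT3G18250 had no tested neighbour. Of the 20 nearest protein-coding positions, 2 on either side of each gene, 9 had a probe set that names them and 6 were tested. Their highest and lowest arrays differed by 1.35-fold to 3.87-fold. Col-0 replicate 3 minus replicates 1 and 2 ran from -0.59 to 0.49 on the log2 scale over these neighbours. AT1G65490, which adjoins AT1G65500, had signals of 191, 198 and 257 in Col-0, 222, 199 and 255 in vtc1-1, and 182, 231 and 289 in vtc2-1, with all genotypes overlapping. Within this narrow span it was highest in vtc2-1 replicate 3 and next in Col-0 replicate 3, and its r with the mean profile of the 5 was 0.77. PCC1 and AT3G22235, which precede AT3G22240, are paired with no probe set in the annotation used here. Among the other loci written as CYSTM genes, 5 of 10 had a probe set and 3 were tested, with 0 higher and 0 lower in limma in each comparison. At most 0.00685% of all tested probe sets were called in any comparison, so these counts say nothing about the 3 CYSTM genes. Their median log2 difference was -0.25 in vtc1-1 and -0.10 in vtc2-1.

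Other genes came from 10 lists written for this work, of defence and stress genes, chromosomal neighbours, organ and senescence markers and reference genes. They could be followed only in part, since 31 of the 142 list members had a probe set and 26 were tested. With all 9 arrays 0 of these passed an adjusted p of 0.05 in limma in any of the 3 comparisons. At most 0.00685% of all tested probe sets did so in any of them, so the count says nothing about the list members. Without Col-0 replicate 3 AT4G12490 was higher by 3.89 on the log2 scale in vtc1-1 and by 2.91 in vtc2-1. The array left out is the wild-type array where AT4G12490 was high, so its calls are not given, as for the 5 genes. PDF1.2b, low on all 3 wild-type arrays, was higher by 3.35 (adjusted p = 0.0211, limma) and 2.36 (adjusted p = 0.0463). The same fits called 0.301% of the tested probe sets higher in vtc1-1 and 0.678% higher in vtc2-1. With all 9 arrays PDF1.2b was higher by 3.22 (adjusted p = 0.240, limma) and 2.24 (adjusted p = 0.519). PDF1.2b is in a list written with earlier results of these data known, and those results had shown Col-0 replicate 3 apart. The p-values without that array are therefore no test of PDF1.2b. In the salicylic acid list 3 of 35 members were tested, AT5G03350 (described above), SAG101, a lipase-like partner of EDS1, and GRX480, a glutaredoxin. GRX480 had signals from below the floor to 11.9 in Col-0 replicates 1 and 2 and of 66.8 in Col-0 replicate 3. It did not exceed 16.0 in vtc1-1 and was at most 32.7 in vtc2-1, so it was high in Col-0 replicate 3 but not in vtc1-1. SAG101 lay between 21.4 and 64.0 on all arrays, highest in Col-0 replicate 3.

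The second gene of the lipid-transfer cluster, AT4G12500, resembled the 5 genes, with signals of 140, 140 and 423 in Col-0, 426, 465 and 434 in vtc1-1, and 182, 155 and 624 in vtc2-1. The jasmonate list had 2 tested members, both defensins. PDF1.2b had signals of 13.1, 15.7 and 18.7 in Col-0, 83.8, 97.0 and 386 in vtc1-1, and 46.0, 104 and 83.9 in vtc2-1, low in all 3 wild-type arrays, unlike the 5 genes. Its probe set can also detect near-identical defensins. PDF1.2 ran from 3.11 to 28.9 in Col-0, 38.2 to 92.6 in vtc1-1 and 6.39 to 39.7 in vtc2-1.

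A pair of stress-related transcription factors had their highest signals in Col-0 replicate 3. STZ (ZAT10), a zinc-finger factor of the oxidative stress list, reached 1492 on that array, compared with 50.9 and 97.4 for Col-0 replicates 1 and 2 and 93.8 to 418 for the mutants. WRKY53, an early factor of leaf senescence, reached 239, compared with 14.7 and 20.3 for Col-0 replicates 1 and 2 and 17.7 to 75.2 for the mutants. Of the 10 senescence markers WRKY53 alone was tested, and SAG29 was below the floor on 6 of the 9 arrays. GR1, a glutathione reductase, differed by 0.02 ± 0.17 in vtc1-1 and 0.17 ± 0.17 in vtc2-1. The 3 tested root markers had median log2 differences of -0.33 and -0.12, the leaf marker RCA had differences of -0.10 and -0.02, and the 4 tested reference genes had medians of 0.04 and 0.05. The part of these genes in the results for the 5 was not tested.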

How the data were processed

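Each deposited array table gives signal intensity on a linear scale, computed with MAS5 and GCOS per the submitters' processing notes; versions are not given in the sources used here. The authors' signal intensities were used as deposited; their mean after trimming 2% at each end was 100 on every array, so a change in total RNA per plant is not visible. Signals were raised to each array's 20th percentile, transformed to log2 with no pseudocount, and tested where the signal exceeded the array's 40th percentile on at least 3 arrays. Group means of all 9 arrays were fitted with limma 3.58.1 in R 4.3.3 (eBayes with an intensity trend; Benjamini-Hochberg over 14603 probe sets), and the procedure was tested on simulated data. Control probe sets were left out. Percentile floors of 10 and 40, no floor, other scalings, filters and fits, and each array left out were tried.

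Gene names come from GEO's annotation of the array, brought up to date with RefSeq's gene table (TAIR10.1). Among 22810 probe sets, 13513 name 1 gene, 503 name several and 8794 are not listed there. No coordinates are given, since no genome build is named. The 5 genes and all lists were chosen with earlier results of these data known. Named genes were the 5, up to 4 members of each list by mean signal, the 10 probe sets most correlated with the mean profile and the 3 most correlated with each gene. THI2.1, AT2G32190, AT2G33520 and AT3G18260 had a probe set but were too dim to be tested. Figures were drawn with matplotlib 3.10.9.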

Additional observations from a re-analysis of the deposited data

How the results depend on the processing

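The number of called probe sets in limma depended on Col-0 replicate 3. For vtc1-1 against Col-0 it was 0 with all arrays and 0 to 62 with 1 array left out, the 62 being without Col-0 replicate 3, and 1 with the replicate number as a block. For vtc2-1 against Col-0 it was 1, and 0 to 157 with 1 array left out, the 157 again without Col-0 replicate 3, and 0 with no filter, with no trend or with only the 2 groups compared. Chosen after seeing the data, leaving out Col-0 replicate 3 with no floor gave 47 and 122, and leaving out replicate 3 of both Col-0 and vtc2-1 gave 196 and 138, with 48 between the mutants in place of 1.

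The median log2 difference of the 5 genes ranged from 1.43 to 3.53 in vtc1-1 and from 0.69 to 3.13 in vtc2-1 with 1 array left out, highest without Col-0 replicate 3, and was 4.45 and 4.51 without that array and without a floor. With all arrays it was 2.58 and 2.43 with no floor, and 1.63 and 0.77 with a floor at the 40th percentile. Between the mutants it ranged from -1.46 to 0.12, changing sign without vtc2-1 replicate 1. With 1 array left out AT3G22240 ranged from -1.46 to 0.12, AT1G76960 from -0.80 to 0.75 and AT3G18250 from -0.99 to 0.41, so these 3 had no settled direction. Without Col-0 replicate 3 and vtc2-1 replicate 3 AT1G76960 was -0.80, and AT1G65500 was -2.07 with an adjusted p of 0.0229 in limma. That p is no test, since the arrays were left out after seeing the data and vtc2-1 replicate 3 was the highest vtc2-1 array for each gene. For AT1G65500 the adjusted p in limma was 0.999 with all arrays and 0.937 without Col-0 replicate 3 only. Over all alternatives the adjusted p of AT1G65500 ran from 0.0229 to 1.00. The difference of Col-0 replicate 3 from the other wild-type arrays had a median of 3.92, of 5.17 with a floor at the 10th percentile, of 5.17 with none and of 3.02 with a floor at the 40th; these settings change only where signals near background are cut off.

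Whether same-numbered arrays belong together was not settled. Their deviations from the group means correlated at -0.08 to 0.21, over 0.1 in 2 of 9 pairs, and the same number correlated best in 10 of 18 cases. The 2 pairs were Col-0 with vtc2-1, at 0.16 for replicate 1 and 0.21 for replicate 3. In this balanced design the replicate block cannot move the differences, whose medians stay 2.15, 1.47 and -0.68. It lowered the SE from 0.85 to 0.56 for AT3G22240 and from 0.97 to 0.55 for AT1G76960. No outlier check was made, since each group had 3 arrays and the check needs 4.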
